A study of Mus musculus with 15 samples.

Results

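The genes described here are the collagen chains of the mouse joint, the 44 protein-coding genes of the count table, out of 26688 genes in all, whose symbol has the form Col, a number, a and a number. They were taken by symbol and biotype alone, with no measured value, and sorted by the collagen they build into 8 fibrillar chains, 7 chains of cartilage, 8 chains of basement membrane and 21 others. Messenger RNA had been sequenced from forelimb joints of wild-type male DBA/1 mice aged 8 weeks, with 5 libraries in each of 3 groups. Healthy mice had received no immunization, CIA mice had collagen-induced arthritis raised with bovine type II collagen in Freund's adjuvant, and CIA+F20 mice had the same arthritis and then F20 by mouth at 10 mg/kg once daily for 21 days. Mice entered either arthritic group at an arthritis index over 5, and no vehicle is named for the CIA group in the sources used here. F20 is known here only by its code name.

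Collagens are secreted proteins in which 3 chains wind into a rope-like helix that is then trimmed and cross-linked into fibres or sheets. Types I, III and V make the fibrils of bone, tendon, capsule and synovium, types II, IX, X and XI belong to cartilage, and type IV forms the sheet under endothelium and around muscle fibres. The same type II collagen that cartilage is built of is the antigen of this arthritis model.

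The libraries held 18627303 to 34247317 counted reads, and values below are CPM, read counts relative to library size after TMM scaling. Whether the libraries are separate mice is not stated in the labels, and p-values therefore measure the spread between libraries only. Library healthy 4 stood apart for the collagens: of the 43 chains that passed the filter on low counts, it was the lowest of the 5 healthy libraries in 28 (65.1%, against 28.2% of all tested genes). Its summed fibroblast markers were 201 CPM, where the other healthy libraries had 794 to 1630, and its summed chondrocyte markers were 38.2 CPM, where the others had 280.0 to 732. The defining markers of fibroblasts, chondrocytes, osteoblasts and tendon were present in the tissue (Matn3 of the chondrocyte list had no read in healthy 4 and CIA 5), and so were those of skeletal muscle, at 39800 to 105000 summed CPM although muscle was trimmed off. In bulk tissue, fewer cells of a type and less RNA per cell cannot be told apart.

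Collagen reads were a small share of each library, and the CIA libraries differed most among themselves. The 44 chains took 0.216% of counts in healthy joints (SD 0.0768), 0.536% in arthritic joints (SD 0.362) and 0.215% after F20 (SD 0.0481, n = 5 each). Within CIA the share was 0.755, 0.669 and 0.945% in libraries 1 to 3 but 0.173 and 0.138% in libraries 4 and 5. CIA 1 to 3 thus lay above every healthy and CIA+F20 library. CIA 4 and 5 lay inside the healthy range only through healthy 4 (0.103%), and below the other healthy libraries (0.199 to 0.307%).

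**Figure D1:**
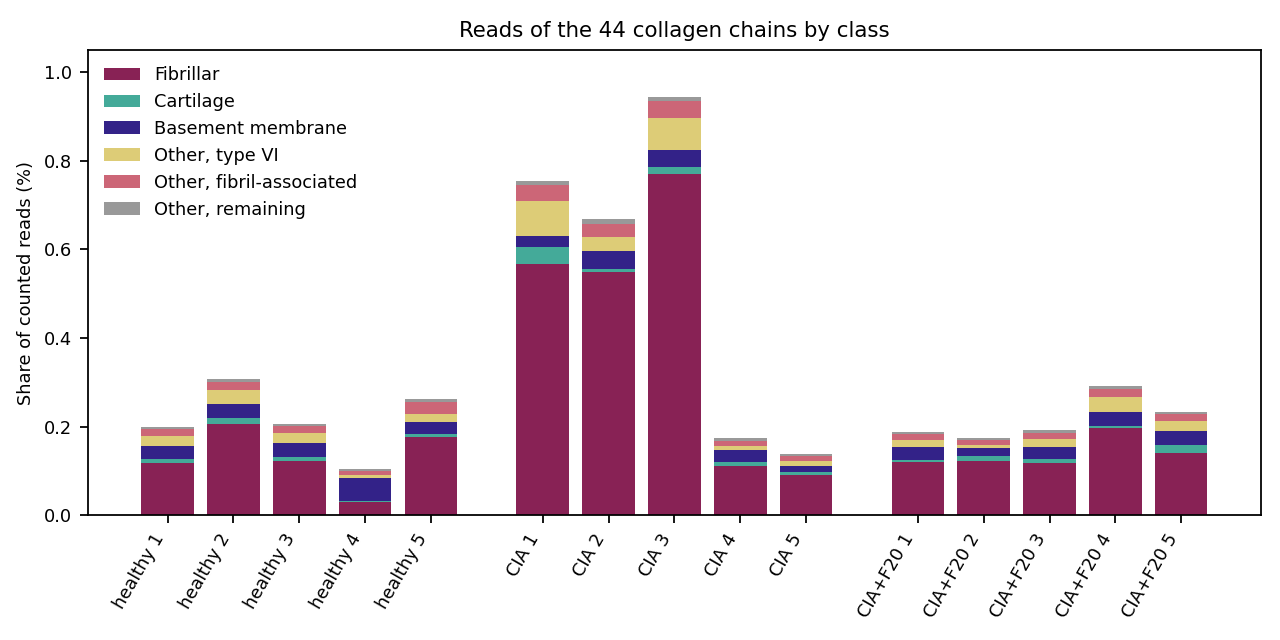
Share of all counted reads (%, vertical axis) taken by the 44 collagen chains in each of the 15 libraries, stacked by class. CIA 1 to 3 reach 0.669 to 0.945%, CIA 4 and 5 have 0.173 and 0.138%, and healthy 4 has 0.103%, of which 0.0519 is basement membrane.

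Per kilobase of exon, the same 3 chains stood at the top in every group. In healthy joints Col1a1 came first at 52.7 CPM per kb (SD 30.1), followed by Col3a1 at 42.5 (SD 23.4), Col1a2 at 34.6 (SD 17.9), Col4a1 at 24.6 (SD 8.49) and Col4a2 at 18.4 (SD 4.53). The levels of the first 3 overlap between libraries, but within every healthy library Col1a1 was above Col1a2, with a ratio per kb of 1.35 to 1.67. In CIA joints Col1a1 stood at 146.0 CPM per kb (SD 108.0), Col3a1 at 117.0 (SD 92.6) and Col1a2 at 90.6 (SD 67.9), while Col4a1 at 14.7 (SD 5.28) came after Col6a1 and Col5a2. Reads of Col1a1, Col1a2 and Col3a1 together made up 23.4 to 59.3% of collagen reads in healthy libraries, 55.9 to 74.0% in CIA and 51.3 to 64.1% in CIA+F20, with the healthy minimum in library 4.

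Across all classes, arthritic joints had higher collagen messenger RNA for a minority of chains. Of the 43 chains tested, 7 were higher in CIA than in healthy joints at an edgeR adjusted p under 0.05, namely Col1a1, Col5a2, Col18a1, Col6a4, Col19a1, Col8a1 and Col25a1. Col4a1 and Col4a5, both of type IV collagen, were lower, and 34 were not called. Among all 15770 tested genes 26.0% were called higher and 19.5% lower, 45.5% in all, so the 20.9% of collagen chains called lies under the background share. The log2 fold changes were above 0 for 29 chains and below 0 for 14, with a median of 0.57 beside 0.07 over all tested genes. Only Col25a1 had CIA libraries that all lay above the healthy ones, where 24.3% of all tested genes had groups with no overlap (11.7% higher and 12.5% lower).

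**Figure D2:**
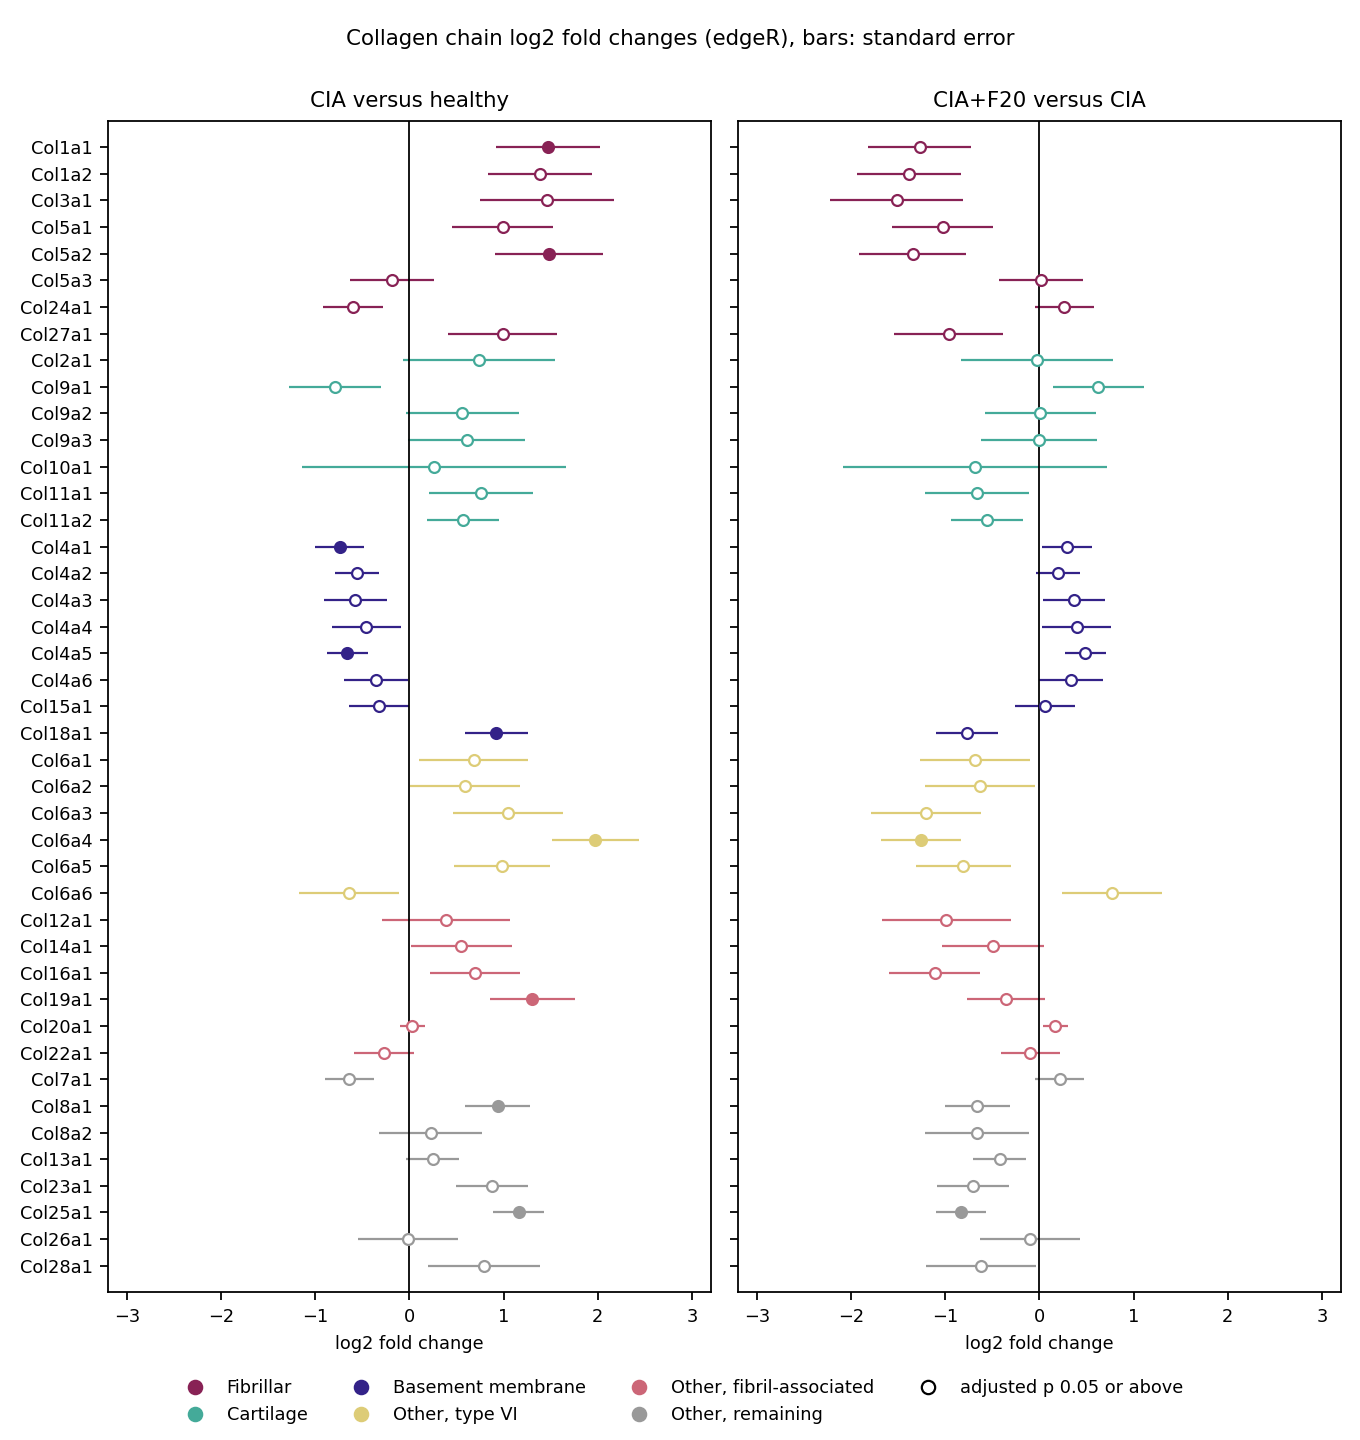
Log2 fold change of the 43 tested collagen chains (points, horizontal axis) with its standard error (bars), in CIA against healthy (left) and CIA+F20 against CIA (right), coloured by class and filled where the adjusted p is under 0.05. On the left 9 points are filled, 7 to the right of 0 and 2 to the left, and on the right 2 are filled, Col6a4 and Col25a1.

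Among the fibrillar chains, 2 of 8 (25.0%, beside 26.0% of all tested genes) were higher in CIA and none was lower, with a class median of 1.19 on the log2 scale. Col1a1, the chain that supplies 2 of the 3 strands of type I collagen (GRCm39 chromosome 11, 94827050 to 94843868), had 275, 518, 295, 78.5 and 565 CPM in healthy 1 to 5. In CIA 1 to 5 it had 1150, 1160, 1940, 290.0 and 240.0 CPM, and in CIA+F20 1 to 5 it had 393, 516, 294, 431 and 349 CPM. CIA 1 to 3 were the highest of all libraries. CIA 4 and 5 lay inside the healthy range, CIA 5 only through healthy 4, since the other healthy libraries had 275 CPM or more. The log2 fold change in CIA was 1.47 ± 0.55 (SE, edgeR adjusted p = 0.0416). Col5a2, a chain of type V collagen, which starts and limits fibrils (chromosome 1, 45413481 to 45542442), followed the same order. Its healthy libraries read 68.7, 113, 71.4, 18.4 and 90.7 CPM, its CIA libraries 317, 241, 358, 49.3 and 44.1 CPM, and its CIA+F20 libraries 78.1, 45.4, 67.7, 130.0 and 76.0 CPM. The fold change was 1.48 ± 0.57 (edgeR adjusted p = 0.0471). Here CIA 4 and 5 were inside the healthy range only through healthy 4, and below the other healthy libraries.

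The other main fibril chains had fold changes of similar size that did not pass the threshold. Col1a2, the partner of Col1a1 in type I collagen, had 389, 634, 422, 93.5 and 651 CPM in healthy, 1510, 1190, 2360, 352 and 309 CPM in CIA, and 255, 563, 407, 516 and 459 CPM in CIA+F20. Its fold change in CIA was 1.39 ± 0.55 (edgeR adjusted p = 0.0519). Col3a1, the only chain of type III collagen, had 448, 740.0, 362, 88.9 and 547 CPM in healthy, 1850, 1630, 2170, 183 and 181 CPM in CIA, and 486, 121, 329, 769 and 398 CPM in CIA+F20. The fold change was 1.46 ± 0.71 (edgeR adjusted p = 0.105). Both repeat the split of CIA 1 to 3 from CIA 4 and 5, and in both CIA 4 and 5 were below every healthy library but healthy 4. Col5a1 (0.99 ± 0.54) and Col27a1 (0.99 ± 0.58) were not called either, and the minor chains Col5a3 (−0.18 ± 0.44) and Col24a1 (−0.60 ± 0.32) had values below 0.

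**Figure D3:**
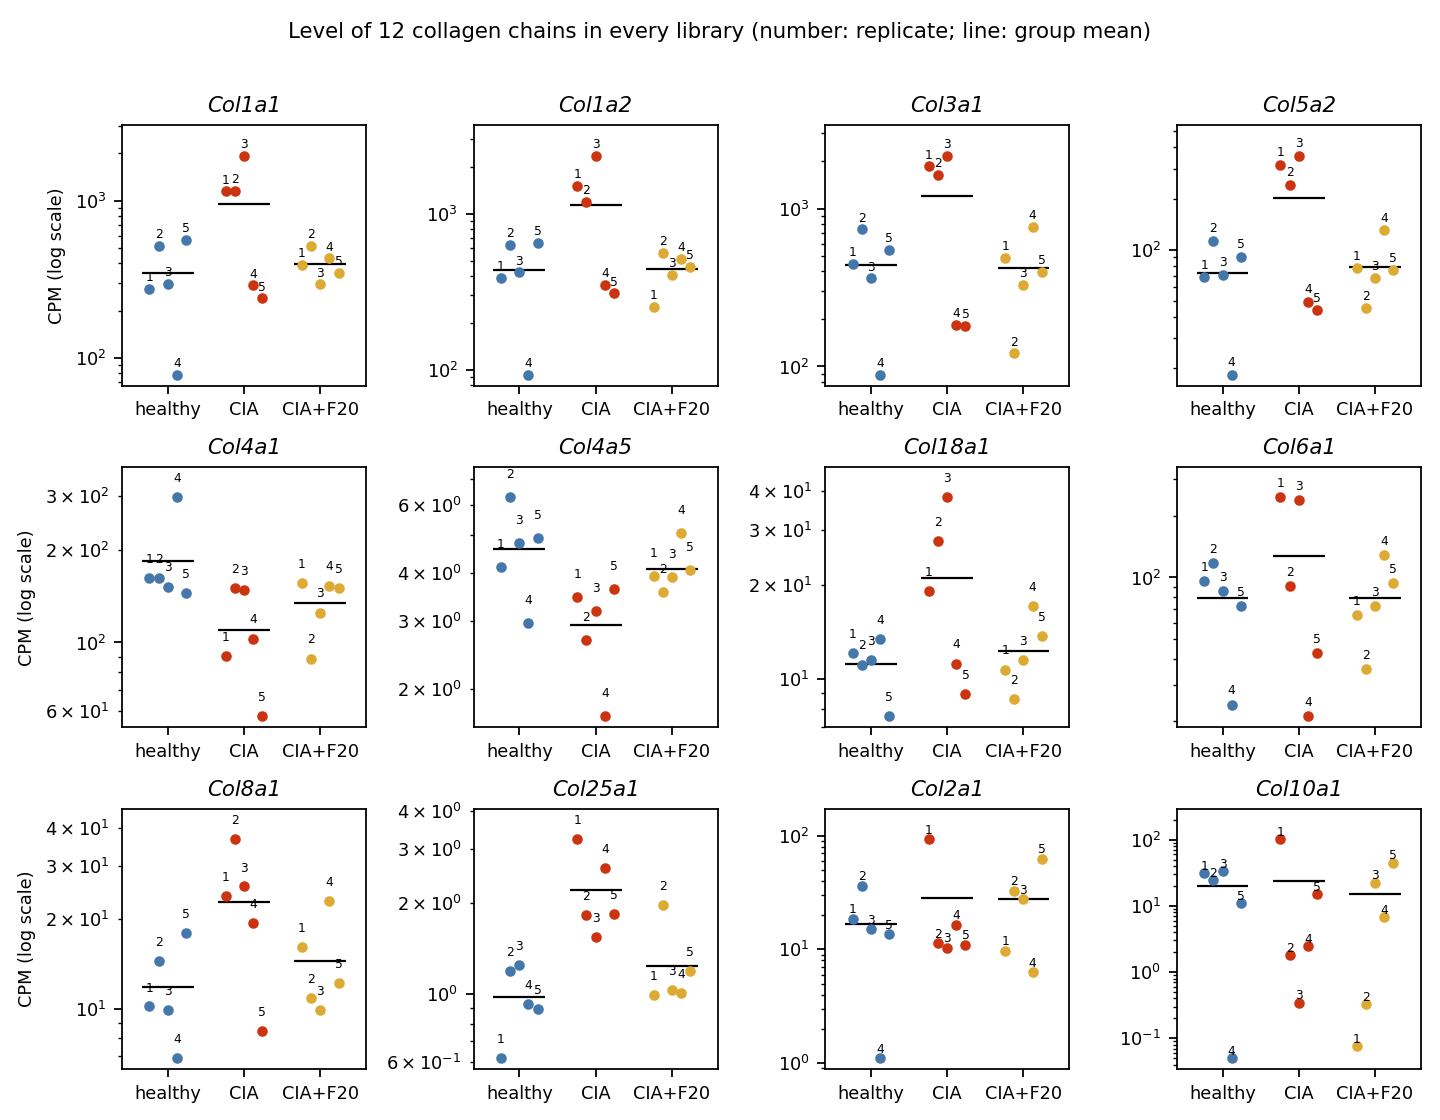
Level of 12 collagen chains in CPM (vertical axis, log scale) in the 5 libraries of each group, with the replicate number above each point and the group mean as a line; Col10a1 in healthy 4, which had no read, is drawn at 0.05. CIA 1 to 3 stand above CIA 4 and 5 for Col1a1, Col1a2, Col3a1 and Col5a2, and healthy 4 is the highest healthy library for Col4a1.

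Of the marker lists of matrix-forming cells, those of tendon, osteoblasts and fibroblasts had higher sums in CIA 1 to 3 than in CIA 4 and 5. Only for osteoblasts were CIA 1 to 3 also above every healthy library, and the chondrocyte sums did not split in this way. Summed tendon markers were 434, 291 and 637 CPM in CIA 1 to 3 but 175 and 139 in CIA 4 and 5, and 92.6 to 308 CPM in healthy libraries. Summed osteoblast markers were 469, 283 and 330.0 CPM in CIA 1 to 3, 173 and 100 in CIA 4 and 5, and 78.2 to 188 in healthy. Summed fibroblast markers were 2990, 1480, 1510, 1320 and 1070 CPM in CIA 1 to 5, and 201 to 1630 in healthy. Summed chondrocyte markers were 1810, 667, 491, 810.0 and 661 CPM, with CIA 3 the lowest and CIA 4 the second highest. Prg4 is in both of these lists and made up much of both sums, with 1240, 546, 261, 742 and 515 CPM in CIA 1 to 5. The chondrocyte sums follow the order of Prg4. In CIA 3 of 8 osteoblast markers, 1 of 5 tendon markers and 1 of 9 fibroblast markers were called higher, and none was lower. Of all tested genes 26.0% were called higher and 19.5% lower. Summed muscle markers ranged from 39800 to 86000 CPM in CIA and from 89500 to 105000 in healthy, with 7 of 10 called lower. The part of these tissues in the fibrillar result was not tested. With the muscle marker score as a covariate none of the 9 calls passed, and 8.78% of all tested genes were still called. Col1a1 was then at 2.01 ± 0.72 (edgeR adjusted p = 0.0918), beside 1.47 ± 0.55 in the main fit. Its estimate was larger, and so was its standard error. The score was 11.4 to 12.7 in CIA and 12.6 to 13.0 in healthy libraries, and so largely follows the group. This fit cannot separate muscle content from arthritis, and no conclusion is drawn from the lost calls. Leaving out 1 library ended the Col1a1 call in 6 of 10 cases (healthy 1, 3 or 4, CIA 1, 2 or 3, adjusted p from 0.0131 to 0.122 over the 10) and the Col5a2 call in 7 of 10 (the same libraries and healthy 5, 0.014 to 0.112).

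Basement membrane chains had values on the other side of 0. Of 8 chains, 7 had a log2 fold change below 0 in CIA, and the class median was −0.51. By adjusted p 2 fell, 1 rose and 5 were not called. The 37.5% called lies under the 45.5% of all tested genes. Col4a1 (chromosome 8, 11248423 to 11362826, minus strand) pairs with Col4a2 (11362805 to 11499287, plus strand) in the main type IV collagen of most basement membranes. The genes lie head to head, and in the deposited coordinates they overlap by 22 bases. Their promoter windows, from 250 bases before to 50 after the RefSeq start on GRCm38.p6, share 78 bases. They are shown because both chains keep nearly one ratio over the libraries, beside the window of Col1a2, since the table has none for its partner Col1a1. Capitals mark any of 3 short motifs on either strand, the CCAAT box, the TATA box written TATAAA and the GC box written GGGCGG, and a motif on the far strand stands as its reverse complement.
Col4a1, chr8:11312777-11313076, minus strand: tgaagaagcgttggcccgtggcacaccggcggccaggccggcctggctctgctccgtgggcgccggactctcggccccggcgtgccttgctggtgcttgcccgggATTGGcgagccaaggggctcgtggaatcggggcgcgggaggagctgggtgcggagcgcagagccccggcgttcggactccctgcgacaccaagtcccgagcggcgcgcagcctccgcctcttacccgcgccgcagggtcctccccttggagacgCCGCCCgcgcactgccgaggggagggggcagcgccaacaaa
Col4a2, chr8:11312555-11312854, plus strand: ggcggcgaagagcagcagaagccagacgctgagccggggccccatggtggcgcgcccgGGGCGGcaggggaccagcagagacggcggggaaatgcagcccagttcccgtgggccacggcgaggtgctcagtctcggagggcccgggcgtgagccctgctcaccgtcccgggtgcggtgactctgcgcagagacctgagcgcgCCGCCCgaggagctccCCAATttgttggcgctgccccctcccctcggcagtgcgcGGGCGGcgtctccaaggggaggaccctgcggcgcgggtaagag
Col1a2, chr6:4505368-4505667, plus strand: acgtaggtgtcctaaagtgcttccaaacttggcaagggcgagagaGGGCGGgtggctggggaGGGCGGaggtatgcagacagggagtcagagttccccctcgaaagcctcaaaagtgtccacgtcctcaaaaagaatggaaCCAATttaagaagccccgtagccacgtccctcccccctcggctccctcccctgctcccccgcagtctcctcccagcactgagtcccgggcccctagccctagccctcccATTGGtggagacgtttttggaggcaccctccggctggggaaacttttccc

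Promoter windows were at hand for 35 of the 44 chains, 38 windows in all; Col1a1, Col2a1, Col4a3, Col5a2, Col9a3, Col12a1, Col14a1, Col22a1 and Col26a1 were not in the table. CCAAT, the motif bound by nuclear factor Y, was found in 13 of the 38 windows (34.2%) and in 37.4% of all 32851 windows. TATAAA was found in 5 (13.2%, against 13.6%), and GGGCGG, a motif bound by Sp1, in 23 (60.5%, against 35.7%). Within each window printed no match overlaps another. The CCGCCC of Col4a1 and the last GGGCGG of Col4a2 are the same GC box, which lies in the bases both windows share. A match describes the letters of a window and names no site in use.

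Col4a1 had 162, 162, 152, 296 and 145 CPM in healthy 1 to 5, 90.6, 150.0, 148, 103 and 57.5 CPM in CIA, and 156, 88.6, 125, 153 and 150.0 CPM in CIA+F20. Healthy 4, the lowest healthy library for the fibril chains, was the highest for this chain, and CIA 2 and 3 overlapped the healthy range. The log2 fold change in CIA was −0.74 ± 0.26 (edgeR adjusted p = 0.0329). Col4a2 had 110.0 to 129 CPM in healthy libraries other than healthy 4 (189 CPM) and 45.7 to 116 CPM in CIA, with a fold change of −0.55 ± 0.23 that did not pass (edgeR adjusted p = 0.0638). Col4a5, the X-linked chain of a second type IV collagen known from kidney and muscle (chromosome X, 140258381 to 140472230), had 4.14, 6.26, 4.77, 2.96 and 4.93 CPM in healthy, 3.46, 2.68, 3.19, 1.70 and 3.62 CPM in CIA, and 3.92, 3.56, 3.89, 5.07 and 4.06 CPM in CIA+F20. Healthy 4 was the lowest healthy library here, inside the CIA range. The fold change was −0.66 ± 0.22 (edgeR adjusted p = 0.0238).

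Col18a1 was the only basement membrane chain that rose. Its protein gives rise to the fragment endostatin, and its gene spans chromosome 10, 76888012 to 77002382. It had 12.1, 11.1, 11.5, 13.4 and 7.58 CPM in healthy, 19.1, 27.7, 38.2, 11.2 and 8.93 CPM in CIA, and 10.7, 8.59, 11.5, 17.1 and 13.7 CPM in CIA+F20, which puts CIA 1 to 3 above and CIA 4 and 5 inside the healthy range. The fold change was 0.92 ± 0.33 (edgeR adjusted p = 0.0346). An overlap with Slc19a1 covers 12.69% of its exon length, and the strand setting of the counting is not given in the sources used here. Summed endothelial markers were 568 CPM in healthy 4, 367 to 409 in the other healthy libraries and 250 to 419 in CIA, where 3 of 6 were called lower and 1 higher; their part in the type IV values was not tested. Without 1 library the Col4a1 call ended in 4 of 10 cases (healthy 4, CIA 1, 4 or 5, adjusted p from 0.019 to 0.102), the Col4a5 call in 2 (healthy 2 or CIA 2, 0.00886 to 0.0697) and the Col18a1 call in 6 (healthy 1, 2, 3 or 5, CIA 2 or 3, 0.00666 to 0.111).

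The balance between sheet and fibril collagen was read within each library as the log2 ratio of Col4a1 to Col1a1, which no library scaling can change. Values were −0.76, −1.67, −0.95, 1.91 and −1.96 in healthy, −3.67, −2.95, −3.72, −1.49 and −2.06 in CIA, and −1.33, −2.54, −1.23, −1.50 and −1.21 in CIA+F20. CIA 1 to 3 had the lowest ratios of all libraries and healthy 4 the highest. The mean was lower in CIA than in healthy by a log2 difference of −2.09 (exact two-sided permutation test, p = 0.0317, adjusted over 9 ratio comparisons 0.286), and higher in CIA+F20 than in CIA by 1.22 (exact permutation p = 0.0635, adjusted 0.286). Neither passed after adjustment, and 0.00794 is the smallest p that 5 against 5 allows. For Col3a1 over Col1a1 the exact permutation p was 0.341 or more in all 3 contrasts.

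The cartilage chains gave no call in any contrast, with 0 of 7 at an unadjusted p under 0.05. In CIA 6 of the 7 had values above 0, with a median of 0.57. Col2a1, the chain of type II collagen and the mouse counterpart of the antigen (chromosome 15, 97873483 to 97902576), had 18.5, 36.0, 15, 1.10 and 13.6 CPM in healthy, 92.9, 11.3, 10.3, 16.4 and 11.0 CPM in CIA, and 9.75, 32.8, 27.6, 6.28 and 62.4 CPM in CIA+F20. CIA 1 was high and healthy 4 low, and the groups overlap. Its fold change of 0.74 ± 0.81 (edgeR adjusted p = 0.474) became −0.47 without CIA 1. Col10a1, made by hypertrophic chondrocytes (chromosome 10, 34265977 to 34273081), ran from 0 reads in healthy 4, which allows up to 0.174 CPM (3 reads, counting error only), to 101 CPM in CIA 1. Its other values were 30.9, 24.3, 33.3 and 11.1 CPM in healthy 1, 2, 3 and 5, 1.82, 0.346, 2.44 and 14.9 CPM in CIA 2 to 5, and 0.0762, 0.327, 22.4, 6.82 and 45.0 CPM in CIA+F20 1 to 5.

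Col10a1 thus spanned more than any other chain within each group, and its fold change of 0.26 ± 1.40 (edgeR adjusted p = 0.892) became −2.03 without CIA 1. Summed chondrocyte markers without collagens were 1810 CPM in CIA 1, 491 to 810.0 in the other CIA libraries and 38.2 in healthy 4, the same libraries that stood high and low for Col2a1; their part was not tested. Nt5dc1 covers 20.76% of the exon length of Col10a1. The other cartilage chains, which sit on or inside type II fibrils, ranged from Col9a1 at −0.79 ± 0.49 to Col11a1 at 0.76 ± 0.55 in CIA, and none was called. The log2 ratio of Col10a1 to Col2a1 differed between groups by less than the spread between libraries (exact permutation p of 0.23 or more in all 3 contrasts).

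Of the 21 other chains, of which Col17a1 was not tested, 4 were called higher in CIA. Col6a4, Col19a1 and Col25a1 were low in level and Col8a1 was not. Called higher were 16.7% of the tested type VI chains, 16.7% of the fibril-associated chains and 25.0% of the rest. None of these shares is above the 26.0% of all tested genes called higher. Col6a4, a minor chain of type VI collagen, which forms beaded microfibrils around cells (chromosome 9, 105866653 to 105973982), had only 2 to 5 reads per healthy library and 4 to 31 per CIA library. Its values were 0.164, 0.102, 0.174, 0.116 and 0.132 CPM in healthy, 0.599, 0.396, 0.154, 1.15 and 0.496 CPM in CIA, and 0.152, 0.409, 0.177, 0.190 and 0.239 CPM in CIA+F20. All CIA libraries but CIA 3 lay above the healthy ones, with a fold change of 1.97 ± 0.46 (edgeR adjusted p = 0.00351). The abundant type VI chains were not called, and Col6a1 had 96.5, 118, 85.7, 24.1 and 72.9 CPM in healthy, 245, 90.6, 237, 21.1 and 43.1 CPM in CIA, and 65.6, 35.8, 72.5, 129 and 93.7 CPM in CIA+F20 (CIA against healthy 0.68 ± 0.58, edgeR adjusted p = 0.354). For this chain CIA 2 lay inside the healthy range, CIA 5 only through healthy 4, and CIA 4 just below it.

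Col25a1, a collagen anchored in the cell membrane and known from motor axons and their muscle targets, was the chain with the clearest separation (chromosome 3, 129925150 to 130393526). It had 0.615, 1.19, 1.25, 0.930 and 0.894 CPM in healthy, 3.23, 1.82, 1.54, 2.59 and 1.84 CPM in CIA, and 0.990, 1.96, 1.03, 1.01 and 1.19 CPM in CIA+F20, from 15 to 70 reads per library. Every CIA library was above every healthy one, CIA 4 and 5 included, and of the CIA+F20 libraries only CIA+F20 2 was in the CIA range. The fold change in CIA was 1.16 ± 0.27 (edgeR adjusted p = 0.00372). The Col25a1 and Col6a4 calls held in all 10 cases with 1 library left out (adjusted p up to 0.0116 and 0.0107).

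Col8a1, a short-chain collagen of vessel walls (chromosome 16, 57444621 to 57575100), had 10.2, 14.5, 9.96, 6.86 and 17.9 CPM in healthy and 23.8, 36.7, 25.6, 19.3 and 8.44 CPM in CIA. Only CIA 5 lay within the healthy range, above healthy 4 alone. Its CIA+F20 values were 16.1, 10.9, 9.94, 22.9 and 12.2 CPM, and its fold change in CIA was 0.94 ± 0.35 (edgeR adjusted p = 0.0394). Col19a1, a fibril-associated collagen (chromosome 1, 24300971 to 24626553), had 4 to 7 reads per healthy library and 2 to 24 per CIA library. That is 0.132 to 0.244 CPM in healthy, 0.0922 to 0.851 CPM in CIA and 0.159 to 0.495 CPM in CIA+F20, with CIA 1 the lowest library of all and a fold change of 1.30 ± 0.45 (edgeR adjusted p = 0.0287). Leaving out 1 library ended the Col8a1 call in 6 of 10 cases (healthy 1, 3 or 4, CIA 1, 2 or 3, adjusted p from 0.00573 to 0.123) and the Col19a1 call in 5 (healthy 1, 2 or 5, CIA 2 or 5, 0.0047 to 0.0807). Col7a1 of skin anchoring fibrils (−0.64 ± 0.26, edgeR adjusted p = 0.0581) and the membrane collagen Col23a1 (0.88 ± 0.38, edgeR adjusted p = 0.0736) missed the threshold. Col17a1, a chain of epithelial attachment plaques, had 0 to 38 reads per library and was not tested.

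With F20, 2 of the 43 chains were lower than in CIA and none was higher, 4.65% of the chains beside 29.6% of all tested genes (14.1% higher and 15.5% lower). Col25a1 fell by 0.83 on the log2 scale (SE 0.27, edgeR adjusted p = 0.0325) and Col6a4 fell by 1.25 (SE 0.43, edgeR adjusted p = 0.0389). At an unadjusted p under 0.05 there were 8 chains, of which only Col4a5 had a value above 0, beside 6944 of all 15770 tested genes. DESeq2 called 5 chains lower and 0 higher, beside 3060 lower and 2626 higher of all tested genes (36.1% called). In no chain were the CIA+F20 libraries separate from the CIA libraries, against 13.6% of all tested genes (8.28% higher and 5.32% lower). Fold changes were below 0 for 29 chains and above 0 for 14, with a median of −0.56 beside −0.06 over all tested genes. The CIA libraries are common to this comparison and that with healthy joints, so values of opposite sign in both are partly built in.

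By class, the fibrillar chains had a median of −1.15 with F20 and none of 8 was called. Col1a1 was at −1.27 ± 0.55 (edgeR adjusted p = 0.0899), Col1a2 at −1.38 ± 0.55 (0.0695), Col5a2 at −1.35 ± 0.57 (0.0848) and Col3a1 at −1.52 ± 0.71 (0.114). DESeq2 gave Col1a1 an adjusted p of 0.046, Col1a2 0.0291 and Col5a2 0.0416. For all 4 chains every CIA+F20 library was below CIA 1 to 3, while CIA 4 and 5 lay inside or below the CIA+F20 range. Basement membrane chains had a median of 0.31, with 7 of 8 above 0 and Col4a1 at 0.29 ± 0.26 (edgeR adjusted p = 0.40); the cartilage median was −0.03 and that of type VI −0.75. Leaving out 1 library ended the Col6a4 call in 7 of 10 cases (CIA 1, 2 or 4, CIA+F20 1, 3, 4 or 5, adjusted p from 0.00829 to 0.132) and the Col25a1 call in 6 (CIA 1 or 4, CIA+F20 1, 3, 4 or 5, 0.0175 to 0.0779). Without CIA 5 the count of lower chains was 11, where 3208 of all 16000 tested genes were lower and 38.8% were called in all.

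Between CIA+F20 and healthy joints no chain was called, with 0 of 43 at an unadjusted p under 0.05 and 0 by DESeq2. Over all genes edgeR called 0.00%, with 1388 genes at an unadjusted p under 0.05, and DESeq2 called 110 higher and 11 lower. No chain had CIA+F20 libraries separate from the healthy ones, against 3.25% of all tested genes (1.98% higher and 1.27% lower). Fold changes of the chains ran from −0.60 (Col12a1) to 0.95 (Col19a1), with a median of −0.02. The standard errors leave room for differences: Col1a1 was at 0.20 ± 0.54, Col3a1 at −0.06 ± 0.70 and Col2a1 at 0.71 ± 0.81.

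Chains that assemble into the same collagen mostly kept their ratio while their levels moved. This was looked at in 7 pairs chosen after the values were seen, per kilobase and as a description. Pairs of chains from different collagens were not set beside them, so a steady ratio is not shown to be particular to partners. Col6a1 over Col6a2 lay between 1.89 and 2.51 in the 15 libraries, a 1.33-fold span, while the levels of both spanned 11.6-fold and 11.5-fold. Col4a1 over Col4a2 lay between 1.06 and 1.51, lowest in CIA 4 and highest in healthy 4, a 1.43-fold span against 5.15-fold and 4.13-fold for the levels. Col1a1 over Col1a2 lay between 1.35 and 1.88 in 14 libraries and at 2.98 in CIA+F20 1, while the levels spanned 24.8-fold and 25.3-fold. Col5a1 over Col5a2 was lower in every CIA library (0.499 to 0.777) than in any healthy one (0.802 to 1.13), and CIA+F20 lay between and across them (0.745 to 0.893). Col4a3 over Col4a4 lay between 1.06 and 2.01, and Col9a2 over Col9a3 between 0.674 and 2.43. Among the 7, the ratio was least even for Col8a1 over Col8a2, from 0.770 to 7.32, with the top value in CIA 4. That is a 9.5-fold span, against 5.35-fold and 10.4-fold for the levels.

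**Figure D4:**
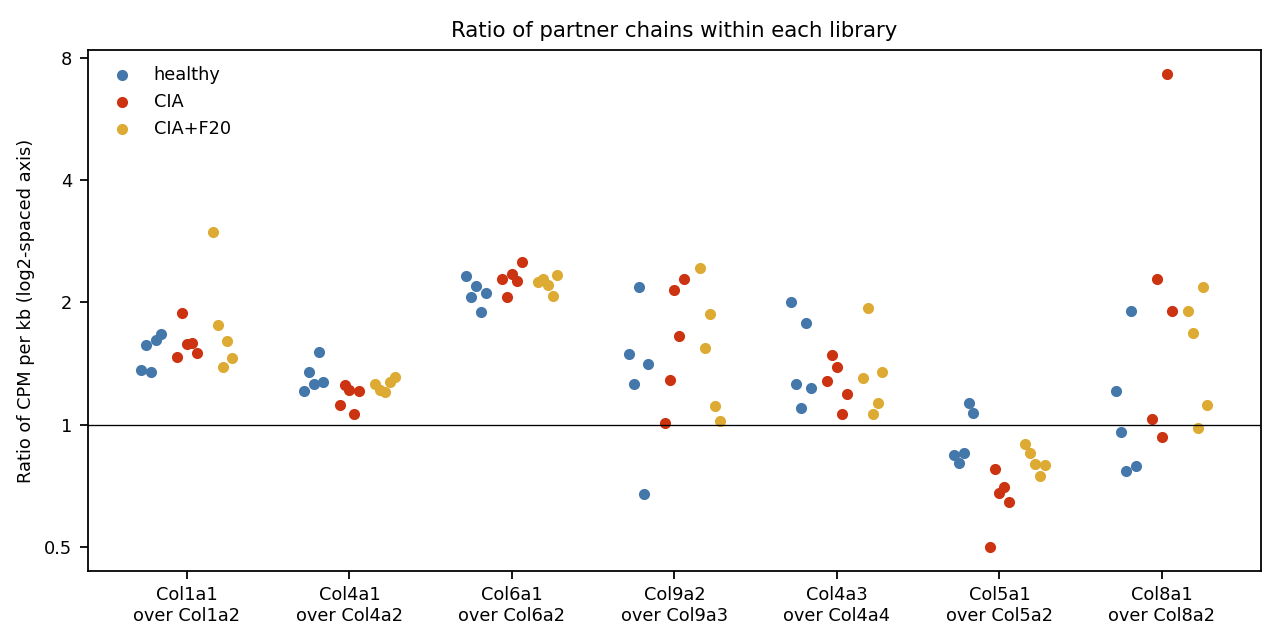
Ratio of CPM per kilobase (vertical axis, spaced by log2) for 7 pairs of partner chains in each of the 15 libraries, one point per library. Points of Col6a1 over Col6a2 lie between 1.89 and 2.51, those of Col8a1 over Col8a2 between 0.770 and 7.32, and for Col5a1 over Col5a2 the CIA points lie below the healthy ones.

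Genes that fold, trim, cross-link, break down and bind collagen were followed in 4 lists, to be read beside the 26.0% of all tested genes called higher and 19.5% called lower in CIA, and the 14.1% called higher and 15.5% called lower with F20. Of 22 genes of procollagen folding and hydroxylation 10 were higher in CIA and 2 lower, and 8 were lower with F20. Fkbp10, a folding helper of procollagen, averaged 8.95 CPM in healthy joints (SD 2.86, n = 5), 28.8 CPM in arthritis (SD 16.3) and 9.77 CPM after F20 (SD 0.941), a log2 change of 1.68 ± 0.38 in CIA (edgeR adjusted p = 0.00298) and of −1.56 ± 0.38 with F20 (edgeR adjusted p = 0.0101). P4hb, the beta subunit of prolyl hydroxylase, was higher in CIA by 0.56 ± 0.11, whereas P4ha1 (−0.77 ± 0.16) and P4ha2 (−0.79 ± 0.17), which carry its catalytic site, were lower in CIA. The third catalytic subunit, P4ha3, was higher in CIA by 2.02 ± 0.62 (edgeR adjusted p = 0.0157) and fell by 1.68 with F20 (SE 0.61, edgeR adjusted p = 0.0489), a call that ended without CIA 1, 2 or 3 or CIA+F20 1, 2, 3 or 5 (adjusted p from 0.0183 to 0.121 over 10 cases). Of 12 genes of propeptide cleavage and cross-linking 3 were higher in CIA, none was lower, and 2 were lower with F20, shares near those of all genes. Lox, the lysyl oxidase that starts cross-links, had 17.4, 26.7, 15.6, 5.17 and 25.9 CPM in healthy, 76.3, 948, 122, 591 and 19.6 CPM in CIA, and 42.2, 12, 19.9, 42.1 and 23.9 CPM in CIA+F20. CIA 2 and 4 were far above the rest, and CIA 5 lay inside the healthy range. Its log2 change was 4.27 ± 0.87 in CIA (edgeR adjusted p = 0.00169) and −3.65 ± 0.85 with F20 (edgeR adjusted p = 0.0085), and without CIA 2 it was 3.47 (edgeR adjusted p = 0.0044) and −2.85 (edgeR adjusted p = 0.0249).

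Of 8 genes of collagen cleavage and uptake 5 were higher in CIA and 5 were lower with F20. The gelatinase Mmp9 rose by 4.28 ± 0.54 in CIA and Ctsk, the collagen-cutting cathepsin of osteoclasts, by 3.68 ± 0.60 on the log2 scale. With F20, Mmp9 fell by 2.13 (SE 0.49) and Ctsk by 3.08 (SE 0.58), all with edgeR adjusted p under 0.05. Of 10 collagen receptors 4 were higher and 1 lower in CIA, and 3 were lower with F20. Lair1, an inhibitory collagen receptor of leukocytes, rose by 2.35 ± 0.41. Itga2, an integrin alpha subunit that binds collagen, rose by 1.20 ± 0.21, and the collagen-binding kinase Ddr1 by 0.64 ± 0.14. The receptor called lower was Itga1, another such alpha subunit (−0.335 ± 0.091, edgeR adjusted p = 0.00815), and Itga10 and Itga11 were not called. With F20, Lair1 fell by 1.33 (SE 0.39), Itga2 by 0.86 (SE 0.21) and Ddr1 by 0.64 (SE 0.14); the Lair1 call with F20 ended without CIA 4 or CIA+F20 1 (edgeR adjusted p up to 0.0607). Summed osteoclast markers went from 16.7 to 56.4 CPM in healthy to 194 to 754 in CIA and 33.6 to 117 in CIA+F20. This sum is not separate from the cleavage list, since Ctsk (mean 226 CPM in CIA) and Mmp9 (133) are in both. They make up most of its CIA mean of 499. Of its other genes, Acp5, Atp6v0d2, Ocstamp and Dcstamp were called higher in CIA and Calcr was not. Summed neutrophil markers, which include Mmp8 of the cleavage list, and macrophage markers were also higher in CIA. The part of these cells in the lists was not tested.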

How the data were processed

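The authors deposited raw counts, whole numbers of reads per gene. The submitters' processing notes name fastp 0.23.2 for trimming, HISAT2 2.2.1 with GRCm39 for alignment and featureCounts 2.0.3 for counting; annotation release, strand setting and the handling of reads with several matches are not given in those notes, so chains that overlap another gene are uncertain. Counts were tested in R 4.3.3 with edgeR 4.0.16 (TMM, filterByExpr with a minimum count of 10, 3 groups fitted together, quasi-likelihood F test, Benjamini-Hochberg over 15770 genes); a standard error is the fold change divided by the root of F. Within-library ratios (0.5 reads added) were compared by exact two-sided permutation tests (252 assignments). DESeq2 1.42.0 was an alternative. Exon lengths and overlaps come from GENCODE vM39 and promoter windows from RefSeq. The members, gene lists and tests were chosen with earlier results of these data known. The chains always named are Col1a1, Col1a2, Col3a1, Col2a1, Col10a1, Col4a1, Col4a2 and Col6a1, plus up to 3 called per class and contrast with the lowest p; others were named after their values were seen. No library was a duplicate of another: the chi-square per gene was at least 22.0 in all 30 pairs within a group. Depth was 18627303 to 34247317 reads, and limits from read counts cover counting error only.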

Additional observations from a re-analysis of the deposited data

Results flagged for a closer look

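Of 75 sets of 5 libraries examined, 11 held a library far from the other 4 for its group's range. For independent, normally spread values the rule would flag about 1 in 20 such sets. The values here need not be normal and several flags repeat the same library, so the count is not read against that rate. In CIA 1, Col2a1 was at 92.9 CPM (others 10.3 to 16.4) and Col10a1 at 101 CPM (others 0.346 to 14.9), and the cartilage chains took 0.0384% of counts (others 0.00717 to 0.0158%). In healthy 4, Col4a1 was at 296 CPM (others 145 to 162) and Col4a2 at 189 CPM (others 110.0 to 129), and the basement membrane chains took 0.0519% of counts (others 0.026 to 0.0317%). The log2 ratio of Col10a1 to Col2a1 in healthy 4 was −5.29 (others −0.57 to 1.15). In CIA+F20 2, Col25a1 was at 1.96 CPM (others 0.990 to 1.19), the log2 ratio of Col3a1 to Col1a1 was −2.10 (others 0.16 to 0.83) and that of Col4a1 to Col1a1 was −2.54 (others −1.50 to −1.21). In CIA+F20 4, the fibrillar chains took 0.196% of counts (others 0.117 to 0.14%).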

How the results depend on the processing

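The 7 chains higher in CIA became 4 with no filter on low counts, 1 with only the 2 groups compared in the fit, 0 with the muscle marker score as a covariate, and 2 to 10 with 1 library left out. The 2 lower chains became 4 with DESeq2, 1 with only the 2 groups compared, 0 with the muscle score, and 1 to 5 with 1 library left out. The 2 chains lower with F20 became 5 with DESeq2, 0 with no filter, with only the 2 groups compared and with the muscle score, and 0 to 11 with 1 library left out. The share of all tested genes called moved too. In CIA it was 45.5% in the main fit, 49.1% with DESeq2, 26.8% with no filter, 37.4% with 2 groups, 8.78% with the muscle score and 38.0 to 50.3% with 1 library left out. With F20 these shares were 29.6, 36.1, 14.4, 17.4, 1.14 and 18.1 to 38.8%. Same-numbered libraries did not pair, with correlations of their deviations from −0.39 to 0.24. With a replicate block the counts were 2 higher in CIA and 0 lower with F20 (41.6% and 22.1% of all tested genes called). Col10a1 was then at −0.93 in CIA and 0.60 with F20. The Col2a1 value in CIA was −0.41 with the muscle score and −0.47 to 1.22 with 1 library left out, and with F20 it was 0.84 and −0.58 to 1.18. Col10a1 was at −1.23 and 0.25 with the muscle score, and at −2.03 to 0.58 in CIA and −1.71 to 1.61 with F20 with 1 library left out. Leave-one-out ranges of the log2 ratios were −1.58 to 0.12 for Col10a1 over Col2a1 with F20 against CIA, and −0.41 to 0.32 (against CIA) and −0.69 to 0.044 (against healthy) for Col3a1 over Col1a1. Of reads outside muscle markers and the mitochondrial genome, collagens took 0.297% in healthy, 0.701% in CIA (SD 0.482, 0.177 to 1.23%) and 0.292% in CIA+F20. No chain was called between CIA+F20 and healthy under any of these alternatives. The cause of these shifts was not tested. Chains with under 40 reads per library, such as Col6a4 and Col19a1, are limited by depth.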
